A study of Mus musculus with 9 samples.

Results

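Cd180, Ly86, Tlr4, Ly96, Ticam1 and Ticam2 encode a pair of related cell surface receptors, the small secreted partner of each, and the adaptors of the TRIF signalling arm. Their values were read in RNA sequencing of mouse splenic monocytes by gene symbol, and each symbol matched 1 gene, so that these 6 genes stand among 46072 listed genes, of which 26108 had a count above 0 in at least 1 library. The set was drawn up with the lower Cd180 level after vancomycin already known, so the values of Cd180 against the Van libraries are given as a description with no p, and its calls there enter only the counts over all 6 genes. The other 5 genes are its partner and the genes of the related receptor.

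The study asked which genes change in splenic monocytes when a gut antibiotic lowers bacterial lipids and when 1 such lipid is given back. All mice were female C57BL/6, and each of the 3 groups had 3 libraries, for which the study's methods give 3 mice. Con mice were gavaged with water. Van mice received vancomycin, an antibiotic that is poorly absorbed when swallowed. The daily dose was 2 mg in gavages of 1 mg, for 6 days. After the gavages the mice were rested with no antibiotic, for 6 to 8 days per the labels of the series and for 8 days in the case of the sequenced mice. VanLip mice received the same vancomycin course and in addition L654, a lipid of gut bacteria, by the retro-orbital route on days 7, 9 and 11. There was no L654 group without vancomycin. For the sequenced groups the study describes injections only in VanLip, though the timeline it refers to includes injections of the vehicle, PBS. Whether the sequenced Con and Van mice were injected is thus not clear. If they were not, L654 and the injections cannot be told apart. Monocytes were obtained by magnetic negative selection, in which cells bearing markers of B cells (CD45R), T cells (CD3e), NK cells (NK1.1) and neutrophils (Ly-6G) are depleted, and no stimulus was given to the cells before RNA was taken. The main test, DESeq2, sets a difference against the spread between libraries within groups, with 1 estimate per gene shared by all 3 groups.

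TLR4 recognises lipopolysaccharide (LPS) of Gram-negative bacteria together with MD-2, the product of Ly96, which holds the lipid. CD180, also called RP105, resembles TLR4 outside the cell and pairs with MD-1, the product of Ly86, but lacks the TIR signalling domain inside the cell; it is found on B cells and on monocytes, macrophages and dendritic cells, where it has been described as a restraint on TLR4 responses. From the cell surface TLR4 signals through TIRAP and MyD88, and after uptake through TRAM (Ticam2) and TRIF (Ticam1), which lead to interferon regulatory factors.

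Cd180 (ENSMUSG00000021624) and Ly86 (ENSMUSG00000021423) encode the receptor and partner of 1 complex and lie on the same chromosome, and the bases before their starts are shown so that the pair can be read side by side. RefSeq start sites on GRCm38.p6 gave a window for 3 of the 6 genes, namely Cd180, Ly86 and Ticam1. For Cd180 the 250 bases before the first RefSeq start are at chr13:102693297-102693546 on the plus strand, and for Ly86 the 113 bases at chr13:37345095-37345207 on the plus strand end where the first GENCODE transcript begins. Capitals mark GGAA, the core of sites for ETS factors such as PU.1, on either strand (TTCC where it is on the minus strand).
Cd180: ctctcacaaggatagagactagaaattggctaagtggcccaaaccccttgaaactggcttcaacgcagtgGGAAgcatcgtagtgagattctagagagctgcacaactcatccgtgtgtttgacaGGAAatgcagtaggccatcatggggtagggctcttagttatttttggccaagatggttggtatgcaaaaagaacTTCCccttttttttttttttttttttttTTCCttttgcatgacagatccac
Ly86: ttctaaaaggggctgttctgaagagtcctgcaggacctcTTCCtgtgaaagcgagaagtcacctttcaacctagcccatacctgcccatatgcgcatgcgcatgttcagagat
The 250-base window of Cd180 held 4 such cores and that of Ly86 held 3, of which 1 lies in the stretch shown. GGAA stood in 93.4% of the 32851 RefSeq promoter windows of the mouse, so its presence does not set these genes apart. Both strands were also searched for GAGGAA, a longer PU.1 core that contains GGAA and stood in 23.3% of windows, for TTNNGNAA of C/EBP factors (36.8%), for GAAANNGAA of interferon regulatory factors (7.13%), for ATGCAAAT, the octamer (1.6%), and for GGGNNNNCC of NF-kB (38.7%). None of these other 5 was in the windows of Cd180 and Ly86, and GGAA was added after that was seen. The Ticam1 window held GAGGAA as well as GGAA.

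In GENCODE release M21 on GRCm38 all 6 were protein-coding genes. Cd180 spans chr13:102693558-102739629 on the plus strand, and its last 7144 bases overlap Mast4 on the minus strand. Ly86 spans chr13:37345208-37419036, Tlr4 (ENSMUSG00000039005) chr4:66827584-66930284 and Ly96 (ENSMUSG00000025779) chr1:16688051-16709611, all on the plus strand and with no overlapping gene. Ticam1 (ENSMUSG00000047123) lies on the minus strand at chr17:56269319-56276786. Ticam2 (ENSMUSG00000056130) lies on the minus strand of chromosome 18, from 46557291 to 46574533. Over 14299 of these bases, from 46560235 on, it overlaps Tmed7 on the same strand, and the rest lies outside Tmed7. Reads of these genes can be exchanged where they overlap, so the Ticam2 values are uncertain.

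The libraries held 43070361 to 61383806 expected counts in Con and Van and 170503470 to 184720704 in VanLip. The low count seen most often was 1.33 in all Con and Van libraries but 2.0 in those of VanLip. Such a step can follow the length of a read, yet the labels state a single read length for the series, and the source of the difference was not tested. Depth and this step went with the VanLip group in every library, so that L654 and these features of the libraries cannot be told apart in any comparison that holds VanLip. Between libraries the count per FPKM of the 6 genes, at equal library size, varied by 3.66% to 5.21%.

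Cd180, the receptor without a TIR domain, was lower in Van than in the other groups. FPKM, a level scaled to transcript length and to the mapped fragments of a library, was 77.6, 65.3 and 75.8 in the Con libraries (72.9 ± 6.62, SD, n = 3). It was 49.5, 43.6 and 41.3 in the Van libraries (44.8 ± 4.19, SD, n = 3). It was 79.2, 90.5 and 90.0 in the VanLip libraries (86.6 ± 6.37, SD, n = 3). Each Van library was below each Con and each VanLip library, and each VanLip library was above each Con library. On normalized counts the fold was 0.599 for Van against Con (log2 fold change -0.74, SE 0.10) and 1.95 for VanLip against Van (0.96, SE 0.10); these contrasts share the Van libraries, which were lower in both, and are descriptions. For VanLip against Con the log2 fold change of Cd180 was 0.22 (95% interval 0.03 to 0.42), a fold of 1.17, with a DESeq2 adjusted p of 0.177, so this difference did not pass the test although the libraries did not overlap.

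Mast4, the antisense neighbour of Cd180, had 1.18 to 1.54 FPKM in Con, 1.09 to 1.38 in Van and 1.14 to 1.58 in VanLip. Its log2 fold changes were -0.14, -0.33 and -0.19 for the comparisons Van to Con, VanLip to Con and VanLip to Van, none of them called by DESeq2 (adjusted p of 0.851, 0.329 and 0.642). The library kit keeps the strand, but whether the strand was used in the estimates is not given in the sources used here. The count per FPKM of Mast4 varied by 44.32% between libraries.

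Ly86, which encodes the partner MD-1, had the highest level of the 6 genes and a smaller difference. Its FPKM was 207, 172 and 181 in Con (187 ± 18.5, SD, n = 3). It was 148, 158 and 160 in Van (155 ± 6.73, SD, n = 3). It was 169, 159 and 170 in VanLip (166 ± 6.03, SD, n = 3). The Van libraries were all below the Con libraries, while VanLip lay between them and overlapped Van. Ly86 fell by 0.28 on the log2 scale in Van against Con (SE 0.09, 95% interval -0.45 to -0.11, DESeq2 adjusted p = 0.035), a fold of 0.824. This call was lost without Con replicate 1 (-0.19, adjusted p = 0.173), without Con replicate 3 (-0.31, 0.073), without Van replicate 1 (-0.25, 0.136), 2 (-0.28, 0.171) or 3 (-0.31, 0.0752), and under edgeR (-0.28, 0.158). In VanLip against Con the log2 fold change was -0.19 (95% interval -0.36 to -0.02, DESeq2 adjusted p = 0.205), and in VanLip against Van it was 0.09 (-0.08 to 0.26, adjusted p = 0.624).

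**Figure D1:**
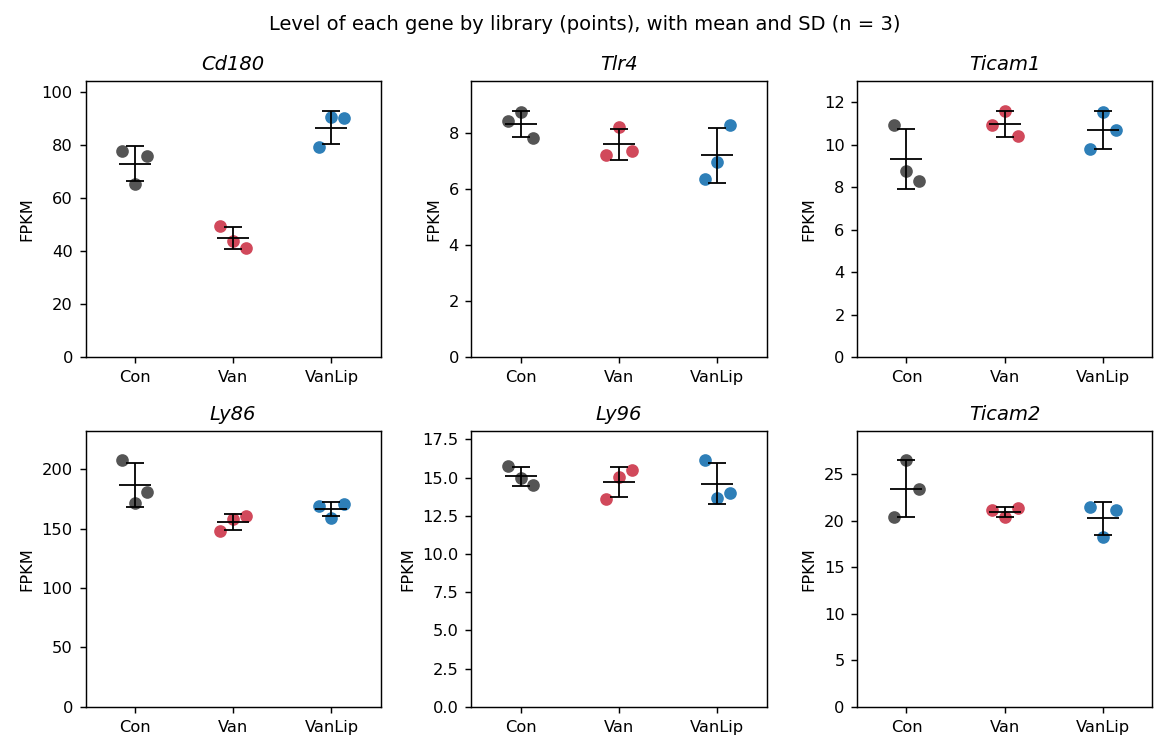
FPKM (vertical axes, from 0) of the 6 genes in the 3 groups (horizontal axes); each point is 1 library and the bars give the mean and SD of 3 libraries. The 3 Van libraries of Cd180, at 41.3 to 49.5, sit below all others, while Ly96 overlaps in every group.

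Tlr4, the receptor that signals for LPS, was the lowest of the 6. Its FPKM was 8.45, 8.75 and 7.84 in Con, 7.22, 8.23 and 7.37 in Van, and 6.38, 6.99 and 8.29 in VanLip. The ranges of the 3 groups overlapped. The log2 fold change of Tlr4 was -0.13 in Van against Con (95% interval -0.34 to 0.09, DESeq2 adjusted p = 0.704), -0.21 in VanLip against Con (-0.42 to 0.01, 0.289) and -0.08 in VanLip against Van (-0.29 to 0.13, 0.765). None passed the test, but without VanLip replicate 3 the value for VanLip against Con was -0.32 and passed it (DESeq2 adjusted p = 0.0145).

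Ly96, the LPS-binding partner of TLR4, had the most even levels. Its FPKM was 15.8, 15.0 and 14.5 in Con, 13.6, 15.0 and 15.5 in Van, and 16.1, 13.7 and 14.0 in VanLip. No group stood apart. The log2 fold changes of Ly96 were -0.05 (95% interval -0.29 to 0.19), -0.07 (-0.30 to 0.16) and -0.02 (-0.26 to 0.21), in the same order of comparisons, with DESeq2 adjusted p of 0.949, 0.829 and 0.953.

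Ticam1 encodes TRIF, the adaptor that carries TLR3 and endosomal TLR4 signals. Its FPKM was 11.0, 8.77 and 8.31 in Con, 10.9, 11.6 and 10.4 in Van, and 9.80, 11.6 and 10.7 in VanLip. Con replicate 1 lay with the Van and VanLip libraries and the other two Con libraries lay below them. The log2 fold change of Ticam1 was 0.22 in Van against Con (95% interval -0.01 to 0.45, DESeq2 adjusted p = 0.384), 0.17 in VanLip against Con (-0.06 to 0.40, 0.466) and -0.05 in VanLip against Van (-0.28 to 0.18, 0.898). Without Con replicate 1 the first of these was 0.36 and passed the test (DESeq2 adjusted p = 0.021).

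Ticam2 encodes TRAM, which links TLR4 to TRIF. Its FPKM was 20.4, 26.5 and 23.4 in Con, 21.1, 20.4 and 21.4 in Van, and 21.5, 18.2 and 21.2 in VanLip. Con replicate 1 lay within the range of Van and VanLip. The log2 fold change of Ticam2 was -0.17 in Van against Con (95% interval -0.39 to 0.05, DESeq2 adjusted p = 0.523), -0.23 in VanLip against Con (-0.44 to -0.01, 0.243) and -0.05 in VanLip against Van (-0.27 to 0.16, 0.867). Tmed7, which overlaps it and encodes a cargo receptor of the secretory pathway, had a mean of 20.1 FPKM in Con, 19.6 in Van and 20.4 in VanLip, with no call in any comparison.

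Of the 6 genes DESeq2 called 2 in Van against Con, Cd180 and Ly86, both lower; over all genes tested 4.33% were called in either direction and 2.06% were called lower. No member passed in VanLip against Con, where 6.67% of all genes were called, and edgeR also called 0 of the 6. In that comparison 3 members, Cd180, Ly86 and Ticam2, had an unadjusted DESeq2 p under 0.05, as had 18.6% of all genes tested. The number of members with such a p was 1 under edgeR, each limma fit, TMM library sizes and 2 groups only. It was 2 with the replicate block and 3 under the other alternatives that kept all libraries. Cd180 alone was called in VanLip against Van, higher in VanLip, where 9.85% of all genes were called and 4.58% were called higher. Since the set was chosen on the Van difference of Cd180, nothing is read from these shares for that gene. The normalized counts of the groups did not overlap for 2 members in Van against Con, for 2 in VanLip against Con (Cd180 higher, Ly86 lower) and for 1 in VanLip against Van, beside 24.1%, 24.5% and 28.6% of all genes with a mean of at least 50 normalized counts. The median log2 fold change of the 6 genes was -0.15, -0.13 and -0.04 in the 3 comparisons, and that of all genes tested was -0.01, 0.01 and 0.01.

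**Figure D2:**
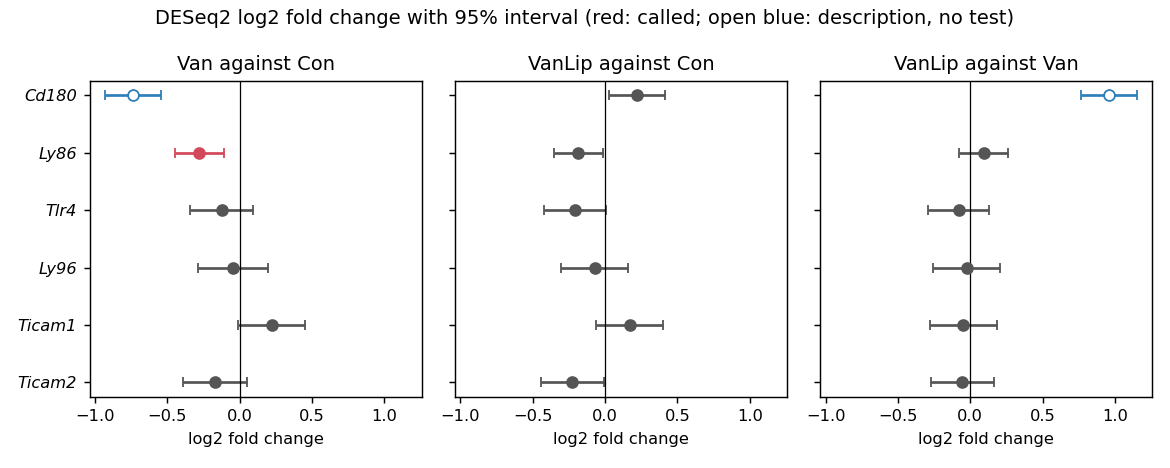
DESeq2 log2 fold change (horizontal axes) of the 6 genes in the 3 comparisons, with 95% intervals; red marks an adjusted p of 0.05 or under, and open blue points mark Cd180 in the comparisons with Van, which are descriptions. Cd180 lies at -0.74 in Van against Con and at 0.96 in VanLip against Van, and the intervals of Tlr4 and Ly96 include 0 in all 3 panels.

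The ratio of a receptor to its partner within a library does not depend on library size. The FPKM ratio of Cd180 to Ly86 was 0.374, 0.380 and 0.419 in Con, 0.335, 0.276 and 0.258 in Van, and 0.469, 0.568 and 0.528 in VanLip. The ratio was thus lowest in Van and highest in VanLip with no overlap, which is a description because it holds Cd180. The ratio of Tlr4 to Cd180 was 0.115 ± 0.0163 (SD, n = 3) in Con, 0.171 ± 0.0222 in Van and 0.0833 ± 0.00783 in VanLip, again a description.

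The ratios without Cd180 were tested, although 3 against 3 libraries cannot give a p under 0.1. The ratio of Tlr4 to Ly96 ran from 0.536 to 0.584 in Con, from 0.476 to 0.547 in Van and from 0.395 to 0.594 in VanLip. The libraries overlapped, with exact permutation p of 0.4 (Van to Con), 0.5 (VanLip to Con) and 0.8 (VanLip to Van). The ratio of Ticam1 to Ticam2 was 0.407 ± 0.112 (SD, n = 3) in Con, 0.525 ± 0.0416 in Van and 0.532 ± 0.0918 in VanLip, with exact permutation p of 0.3, 0.3 and 1.0. The ratio of the MD partners, Ly86 to Ly96, was 12.4 ± 0.855 (SD, n = 3) in Con, 10.6 ± 0.261 in Van and 11.4 ± 0.876 in VanLip. Its Van libraries lay below its Con libraries, with an exact permutation p of 0.1, the smallest that 3 against 3 libraries allow, and 0.54 after adjustment over 9 tests. The other adjusted values were 0.54 to 1.0.

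**Figure D3:**
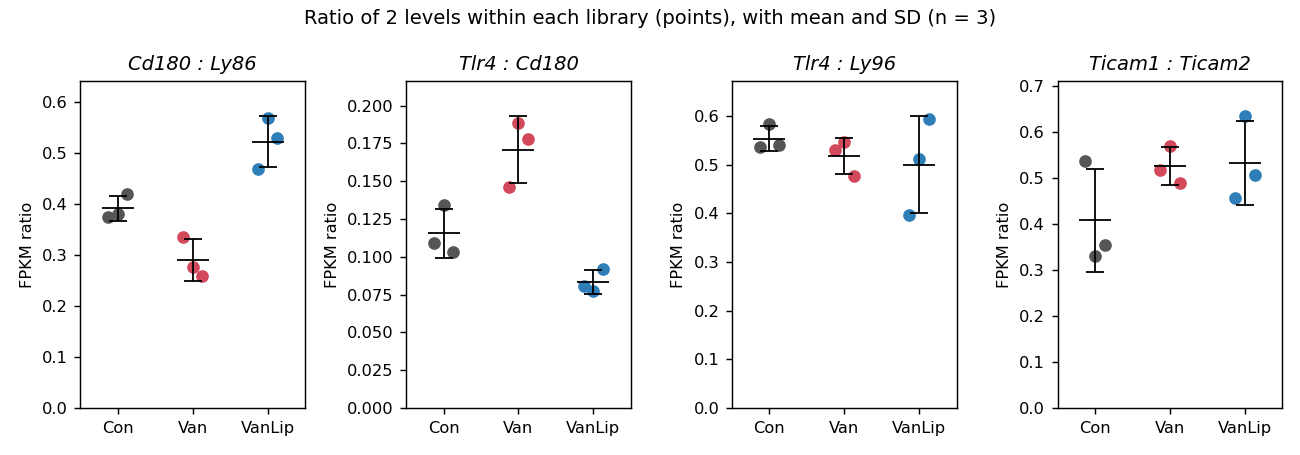
FPKM ratio of 2 genes within a library (vertical axes, from 0) by group; points are libraries, bars the mean and SD of 3. The Cd180 to Ly86 ratio averages 0.290 in Van against 0.391 in Con and 0.522 in VanLip, while the groups overlap for Tlr4 to Ly96.

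In each group the order of levels per length was Ly86, Cd180, Ticam2, Ly96, Ticam1 and Tlr4. Neighbours in this order did not overlap within a group, except Ticam1 and Tlr4 in Con. Over the 9 libraries Ly86 ranked at the 98.6 percentile of the 26108 detected genes by mean FPKM and Cd180 at 96.5, followed by Ticam2 at 88.0, Ly96 at 83.8, Ticam1 at 79.3 and Tlr4 at 75.6. In these monocytes both genes of the CD180 complex thus stood above both genes of the TLR4 complex.

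Across the 9 libraries the gene with the profile most like Cd180, among 11710 genes with a mean of at least 1 FPKM, was Arhgap17 (Pearson r = 0.994 on log2(FPKM + 1)), then St3gal2 (0.982) and Pdlim2 (0.971). Arhgap17 had a mean of 48.6 FPKM in Con, 34.9 in Van and 54.0 in VanLip. The genes most like Ly86 were Slc31a2 (0.941), Zfp687 (0.929) and 9330175E14Rik (0.925). For Tlr4 they were Shprh (0.948), 3110052M02Rik (0.947) and Gm12551 (0.946), and for Ly96 they were 2410089E03Rik (0.934), Tmed10 (0.913) and Lpgat1 (0.913). For Ticam1 they were Gm22744 (0.97), Tmem161a (0.949) and Nhp2l1 (0.947), and for Ticam2 they were P2rx7 (0.936), Top2b (0.926) and Gng12 (0.923). The libraries share their group, so these correlations describe likeness only and have no p. Among the members, Ticam1 and Ticam2 had an r of -0.852 over 9 libraries and -0.803 after the group means were taken off, and Cd180 and Ly86 had 0.496 and 0.121.

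Of the 35 other listed genes of the pathway DESeq2 called 4 in Van against Con (11.4%, beside 4.33% of all genes), 1 in VanLip against Con (2.86%, beside 6.67%) and 6 in VanLip against Van (17.1%, beside 9.85%). The medians of their log2 fold changes were 0.02, -0.02 and 0.02. Hsp90b1, the chaperone gp96 that folds Toll-like receptors, rose (log2 fold change 0.36, SE 0.09, DESeq2 adjusted p = 0.0056). Unc93b1, which escorts endosomal receptors, fell by 0.27 on the log2 scale (adjusted p = 0.0409), Ikbkg, the regulatory subunit of the IKK complex, fell by 0.25 (0.0204), and Prkcb, a protein kinase C linked to B cell receptor signalling, fell by 0.44 (0.0222).

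In VanLip against Con only Tab1, which activates the kinase TAK1, was called, and it was higher (0.33, DESeq2 adjusted p = 0.011). In VanLip against Van, Tab1 (0.41, DESeq2 adjusted p = 0.000336), Myd88, the central adaptor of most Toll-like receptors (0.28, 0.00628), and Ikbkg (0.23, 0.0196) were higher. Hsp90b1 fell by 0.32 (DESeq2 adjusted p = 0.00839), Peli1, a ubiquitin ligase of the TRIF arm, fell by 0.26 (0.0445), and Lyn, a Src family kinase, fell by 0.17 (0.0137). Most of these calls depended on the test, since edgeR called 0, 0 and 2 of the 35 genes in the 3 comparisons.

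By arm, 1 of 13 genes of the MyD88 arm was called lower in Van against Con, 1 higher in VanLip against Con and 3 higher in VanLip against Van. Over all genes 2.27% were called higher and 2.06% lower in Van against Con, 2.98% and 3.69% in VanLip against Con, and 4.58% and 5.27% in VanLip against Van. Of 8 genes of the TRIF arm DESeq2 called 0 in Van against Con and 0 in VanLip against Con, where only Peli1 had an unadjusted p under 0.05, and 1 lower in VanLip against Van. None of the 3 genes of LPS transfer was called by DESeq2 or had an unadjusted p under 0.05, and Cd14, the LPS co-receptor, had 145 to 161 FPKM in Con, 173 to 193 in Van and 93.8 to 196 in VanLip. Of 6 genes of receptor folding and trafficking, 1 was higher and 1 lower in Van against Con. Among the 5 kinases and adaptors linked to CD180 in B cells, 1 was called lower in Van against Con and 1 lower in VanLip against Van.

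**Figure D4:**
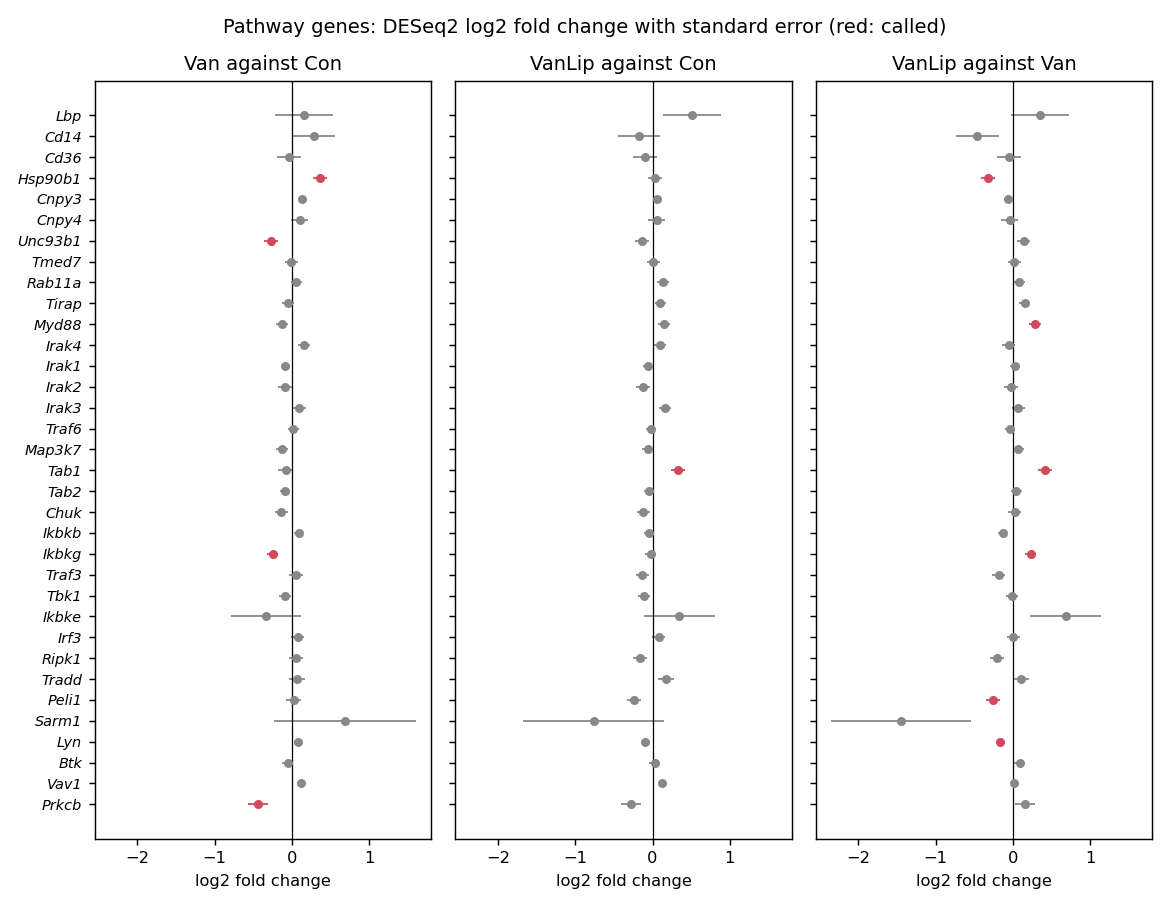
DESeq2 log2 fold change (horizontal axes) with its standard error for the pathway genes in the 3 comparisons, with 1 listed gene not shown; red marks an adjusted p of 0.05 or under. The called genes lie between -0.44 and 0.41, and the widest bars belong to Sarm1, whose mean level was under 0.1 FPKM in each group.

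Since CD180 is also a B cell protein and bulk RNA cannot tell fewer cells of a type from less RNA per cell, cell type markers are given beside it. The summed FPKM of 10 B cell markers was 10.9 to 14.4 in Con, 9.27 to 11.3 in Van and 10.9 to 13.6 in VanLip, with 7.25 to 10.5 of it from Cd79b, and 1 of the 9 tested, Blk, was called lower in Van (-1.36, DESeq2 adjusted p = 0.0181). The median log2 fold change of the tested B cell markers was -0.53 in Van against Con, -0.55 in VanLip against Con and 0.17 in VanLip against Van. With the B cell marker level as a covariate Cd180 had log2 fold changes of -0.75, 0.22 and 0.97 and Ly86 of -0.34, -0.19 and 0.15. The markers shared by monocytes summed to 8913 to 9477 FPKM in Con, 7662 to 9384 in Van and 8910 to 10348 in VanLip, with 0 of 6 called by DESeq2 in any comparison. Fcgr1 (0.00539) and Itgam (0.0187) had an unadjusted DESeq2 p under 0.05 in Van against Con, as had Itgam in VanLip against Van (0.0242).

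Other markers did move with the groups. The 5 markers of classical monocytes summed to 716 to 824 FPKM in Con, 492 to 802 in Van and 835 to 999 in VanLip, so that each VanLip library was above each Con library, as for Cd180, while Van overlapped Con. Among them Ccr2 was lower in Van than in Con (-0.83, DESeq2 adjusted p = 0.00048) and higher in VanLip than in Van (1.04, 7.38e-07), the same directions as Cd180, while Vcan was higher in Van than in Con (1.54, 0.0123). Ly6c2 was higher in VanLip than in Van (0.39, DESeq2 adjusted p = 0.0262) and had -0.34 in Van against Con (0.11). Of 6 conventional dendritic cell markers Clec9a (-1.12, DESeq2 adjusted p = 1.55e-05) and Xcr1 (-0.85, 0.00898) were lower in Van than in Con, as was Siglech of the 4 plasmacytoid markers (-0.89, 0.0475), and the other markers of both lists were not called there. Clec9a (0.67, DESeq2 adjusted p = 0.0164) and Siglech (0.85, 0.03) were higher in VanLip than in Van, and Cd209a (-0.73, 0.028) and Xcr1 (-0.73, 0.0181) were lower in VanLip than in Con. The 4 erythroid markers summed to 56.8 to 114 FPKM in Con, 189 to 430 in Van and 155 to 640 in VanLip, with 3 called higher in Van and 4 in VanLip against Con. The 4 NK cell markers summed to 9.84 to 13.9 FPKM in Con, 4.34 to 7.67 in Van and 6.09 to 8.92 in VanLip, and Klrk1 was called lower in Van than in Con (-0.90, DESeq2 adjusted p = 0.000471) and in VanLip than in Con (-0.74, 0.00542). The 6 neutrophil markers summed to 4.42 to 11.7, 1.94 to 10.4 and 3.19 to 5.19, with Ly6g at 0 in every library. Retnlg was called lower in Van than in Con (-2.60, DESeq2 adjusted p = 0.0225) and Ngp lower in VanLip than in Con (-1.94, 0.0372). Platelet markers summed to 9.73 to 19.4, 8.20 to 11.1 and 3.92 to 10.8, and T cell markers to 12.4 to 16.8, 9.48 to 13.4 and 7.28 to 15.4, with 0 of 3 and 0 of 6 called by DESeq2 in each comparison. Itga2b and Cd3d in Van against Con, and Itga2b and Pf4 in VanLip against Con, had an unadjusted p under 0.05. In at least 1 Van library the NK cell, neutrophil, platelet, T cell and classical monocyte sums were as far below the Con mean as Cd180 was in Van replicate 1 (-0.56 on the log2 scale), as the plot of marker sums shows. Con replicate 2 was also that far below for the neutrophil (-0.934) and platelet (-0.631) sums. Van replicate 2 lay above the Con mean for neutrophils (0.299), and Van replicate 3 for classical monocytes (0.065).

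The sums of the other lists were as follows. Nonclassical monocyte markers summed to 2483 to 2801 FPKM in Con, 2477 to 3300 in Van and 2378 to 3092 in VanLip, and red pulp macrophage markers to 781 to 926, 880 to 1196 and 817 to 938. Cx3cr1 of the first list was higher in VanLip than in Van (0.43, DESeq2 adjusted p = 0.00264), and Vcam1 of the second was higher in Van than in Con (0.46, 0.0106) and lower in VanLip than in Van (-0.50, 0.00176). Conventional dendritic markers summed to 105 to 120, 94.5 to 114 and 83.3 to 104, and plasmacytoid dendritic markers to 68.9 to 81.1, 75.2 to 84.4 and 76.2 to 103. The part of the marker lists in the differences of Cd180 and Ly86 was not tested.

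**Figure D5:**
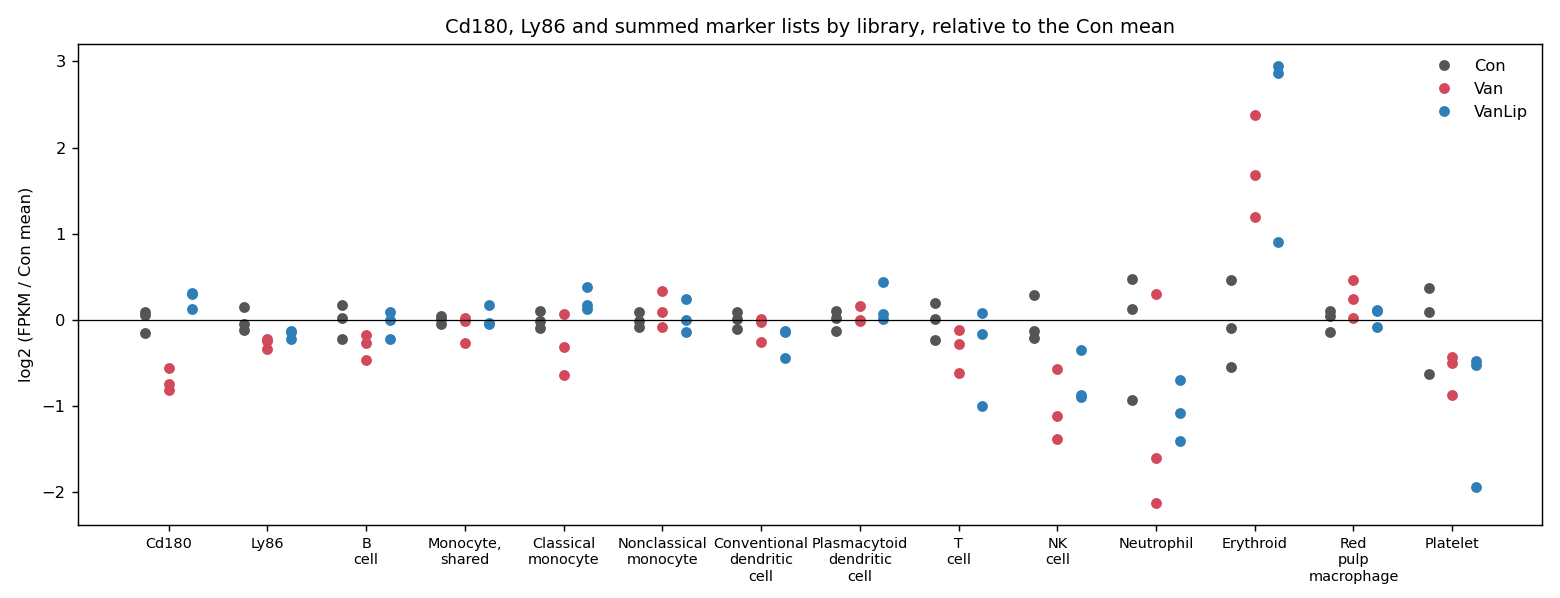
Level of Cd180, Ly86 and the summed levels of all 12 marker lists in each library, as log2 of FPKM over the mean of the Con libraries (vertical axis); each point is 1 library. The erythroid sums of Van and VanLip lie above Con, the Van points of Cd180 lie below its Con points, and at least 1 Van point of the NK cell, neutrophil, platelet, T cell and classical monocyte sums lies within or below their range. So do the points of Con replicate 2 for the neutrophil and platelet sums. The VanLip points of classical monocytes lie above their Con points, as those of Cd180 do.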

How the data were processed

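RNA sequencing of splenic monocytes was analysed in 9 libraries, 3 each of Con, Van and VanLip, grouped by sample title. Per the labels, the authors aligned TruSeq Stranded mRNA reads to GRCm38 with HISAT2 2.2.1, converted files with SAMtools 1.9, and estimated FPKM with StringTie 2.1.3. The authors deposited these FPKM values and the expected counts that tximport 1.26.1 made from them, which are not normalized. The annotation release is not given in the sources used here. Positions are of GENCODE release M21.

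Expected counts were rounded and tested in R 4.3.3 with DESeq2 1.42.0 (Wald test, all 9 libraries in 1 fit, group as the only term, independent filtering at 0.05), with Benjamini-Hochberg adjustment over all genes tested and calls at 0.05 or under. All tests were two-sided. Alternatives were edgeR 4.0.16, TMM library sizes, at least 10 counts in 3 libraries, 2 groups only, a replicate block, division by the size of 1 read, a B cell covariate, omission of single libraries, and limma 3.58.1 on log2(FPKM + 1), on log2(FPKM + 0.1) and after dropping genes under a mean of 1 FPKM. The fits were tested on simulated data. Named genes were the 6 members, pathway genes called in at least 1 comparison, the 3 genes most correlated with each member, and markers. Mast4 and Tmed7 were added as overlapping genes, and Cd14 and Sarm1 after their values were seen. The values of 1 listed gene are not reported here, though counts over the lists include it. The members and lists were chosen with earlier results of these data known. Sequences are from RefSeq on GRCm38.p6.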

Additional observations from a re-analysis of the deposited data

How the results depend on the processing

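Of the values of the 6 genes under the alternatives, 321 kept their direction and side of the threshold, 12 lost a call, 2 gained one and 7 changed sign. Cd180 kept its sign in each comparison under all alternatives run. Its call in Van against Con, which enters only the counts, was lost under limma with pseudocounts of 1 and 0.1. Ly86 in Van against Con was also lost with the replicate block (adjusted p = 0.0552) and limma (0.243, 0.244 and 0.139 at a mean FPKM of at least 1). Ly96 in VanLip against Van was 0.03 with the B cell covariate and ran from -0.11 to 0.03 without single libraries. The sign also changed for Ly96 in Van against Con (-0.09 to 0.01), Ticam1 in VanLip against Van (-0.10 to 0.00) and Ticam2 in VanLip against Van (-0.11 to 0.02). The cause was not tested.

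Members called in Van against Con were 1 under edgeR, 1 with the replicate block, 0 and 0 under limma with pseudocounts of 1 and 0.1, and 1 at a mean FPKM of at least 1. Pathway genes called in Van against Con were 0 under edgeR, 2 with the replicate block, 1 with the B cell covariate and 0 under each limma fit. In VanLip against Con they were 0 under edgeR, 2 with TMM, 0 with the replicate block and 0 under each limma fit. In VanLip against Van they were 2 under edgeR, 3 with the 2 groups only, and 1, 1 and 2 under limma. Over all genes edgeR called 188, 277 and 720 in the 3 comparisons, against 803, 1105 and 1777 in DESeq2. Limma called 36, 39 and 96 in Van against Con, 196, 267 and 357 in VanLip against Con, and 591, 611 and 820 in VanLip against Van. Without single libraries the calls over all genes ran from 425 to 913, 606 to 1273 and 1141 to 1666, of members from 1 to 2, 0 to 1 and 1 to 1, and of pathway genes from 0 to 4, 0 to 2 and 2 to 5.

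TMM raised the share of calls that were higher from 44.7% to 56.8% in VanLip against Con and from 46.5% to 55.6% in VanLip against Van. Libraries with the same replicate number did not deviate together over genes with a mean of at least 50 normalized counts (r from -0.065 to 0.123). Deviations within 3 libraries cannot exclude a pairing that touches fewer genes. The replicate block gave 932, 1146 and 1644 calls over all genes. With 3 libraries a group, differences of the size seen for Tlr4, Ticam1 and Ticam2 have intervals that include or nearly include 0.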
